A study of Mus musculus with 24 samples.

Results

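The Bcl2 family genes Bcl2, Bcl2l1, Mcl1, Bcl2l11, Bax, Bak1, Bid and Bbc3 were examined in ATAC-seq data, which count insertions of Tn5 transposase in open chromatin. A region belonged to a gene if it overlapped the gene body, or if that gene owned the nearest protein-coding gene end within 50 kb. This gave 13 of the 13910 regions of the deposited table. Bcl2 had 4 regions, Bid 3, Bcl2l1 and Bcl2l11 2 each, and Mcl1 and Bax 1 each. None of the regions met the rule for Bak1 or Bbc3, so these genes have no value here.

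The 24 libraries came from WT CD45.1 donor bone marrow cells recovered 13 to 15 weeks after transplantation into young CD45.2 mice, so every profiled cell was of WT genotype and the groups differed in the recipient. Recipients were WT or of a line labelled IκB–, a name that refers to inhibitory partners of NF-κB, a transcription factor of inflammation. Which allele the IκB– line carries, and in which cells, is not given in the labels. Donor cells that were Lin–, Sca1+ and cKit high were sorted into HSC (Flt3–, and CD150– CD48– as the protocol writes the gate), MPP2 (Flt3–, CD150+ CD48+), MPP3 (Flt3–, CD150– CD48+) and MPP4 (Flt3+), with 500 to 1500 cells per sample. The 8 groups held 3 libraries each. Because replicates 2 and 3 of WT MPP3 differed by no more than sampling noise (p 0.348 in a chi-square test over regions), they were summed and counted once, which leaves 23 replicates. The labels do not say whether replicates came from separate mice, so the p-values measure the spread between these samples.

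Proteins of the Bcl2 family decide whether the outer mitochondrial membrane stays intact. Bcl2, Bcl-xL (encoded by Bcl2l1) and Mcl1 preserve it, Bax and Bak1 form pores in it, and the BH3-only proteins Bim (encoded by Bcl2l11), Bid and Puma (encoded by Bbc3) relay stress and death receptor signals to the other members. Mcl1 is known to be required for the survival of hematopoietic stem cells, and Bcl2 and Bcl2l1 are known as genes that NF-κB can induce in other settings.

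Promoter sequence is shown for 4 of the starts that a region covered, because the region that differed between recipients lay over the start of Mcl1 while the regions over the starts of Bcl2, Bid and Bcl2l11 passed no test. Each line gives the 250 bases before a RefSeq transcription start (GRCm38.p6, the assembly of the files' mm10 build), 5′ to 3′ on the gene's strand. Capitals mark matches, on either strand, to the Sp1 motif GGGCGG or to CCAAT.
Mcl1, chr3:95658471-95658720, plus strand: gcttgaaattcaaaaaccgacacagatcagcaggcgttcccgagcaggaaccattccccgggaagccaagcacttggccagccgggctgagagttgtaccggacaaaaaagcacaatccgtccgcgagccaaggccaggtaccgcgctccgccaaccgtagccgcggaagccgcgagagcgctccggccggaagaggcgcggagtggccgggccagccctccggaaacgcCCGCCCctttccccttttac
Bcl2, chr1:106714291-106714540, minus strand: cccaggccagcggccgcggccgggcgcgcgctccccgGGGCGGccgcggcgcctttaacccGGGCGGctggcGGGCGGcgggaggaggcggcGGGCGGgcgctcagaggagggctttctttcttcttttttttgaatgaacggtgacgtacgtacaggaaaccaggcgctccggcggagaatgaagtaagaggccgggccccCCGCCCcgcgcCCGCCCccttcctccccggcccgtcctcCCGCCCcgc
Bid, chr6:120916825-120917074, minus strand: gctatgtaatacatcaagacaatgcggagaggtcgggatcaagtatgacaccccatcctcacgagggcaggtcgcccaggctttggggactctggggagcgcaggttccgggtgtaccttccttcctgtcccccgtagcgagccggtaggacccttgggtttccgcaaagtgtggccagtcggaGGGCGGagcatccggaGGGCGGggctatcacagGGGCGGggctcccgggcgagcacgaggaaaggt
Bcl2l11, chr2:128127325-128127574, plus strand: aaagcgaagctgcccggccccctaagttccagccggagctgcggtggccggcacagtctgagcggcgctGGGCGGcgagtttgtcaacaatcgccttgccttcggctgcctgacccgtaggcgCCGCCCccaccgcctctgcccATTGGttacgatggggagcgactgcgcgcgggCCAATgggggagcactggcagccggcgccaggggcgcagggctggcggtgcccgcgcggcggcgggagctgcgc

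The Mcl1 window held 1 match to GGGCGG, the Bcl2 window 7, the Bid window 3 and this Bcl2l11 window 2 together with 2 CCAAT matches. The Sp1 motif occurred in 33.0% and CCAAT in 33.8% of 32536 distinct RefSeq promoter windows of the same length. The ETS motif CCGGAAGT (2.90% of windows), the cAMP response element TGACGTCA (1.56%) and the NF-κB motif (3.92%) had no match in the 4 printed windows. No match to one motif overlapped a match to another there. Among all members, the NF-κB motif matched 1 further Bcl2l1 start window, chr2:152830718-152830967, which no region of Bcl2l1 overlaps, and 1 Bbc3 window, where 2 matches overlap each other. A match is a run of letters and was not tested as a binding site. The printed windows were rich in G and C (64.4% for Mcl1, 74.8% for Bcl2, 63.6% for Bid and 73.2% for Bcl2l11, against a median of 52.4%).

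Total counts per library ran from 121599 to 963699, the share of counts in mitochondrial regions from 1.40% to 11.96%, and the part of nuclear counts that fell at most 1 kb from gene ends from 61.1% to 73.8%, with the highest value in IκB– HSC replicate 3. Depth sets what can be seen here: single member regions held between 0 and 178 counts in a replicate. Levels below are CPM, counts scaled to a common library size after TMM normalization. Where recipient groups are said to overlap or not, this describes the ranges of few replicates. The share of all regions whose groups separate in this way was not counted. Of the 13 regions, 12 passed the filter on low counts and were tested with edgeR among 13325 regions; a region is termed called if its Benjamini-Hochberg adjusted p over all of these is under 0.05. The regions over Flt3, the surface marker of MPP4, summed to 173 ± 65.0 CPM in MPP4 (SD, n = 6) and 90.3 ± 30.3 in HSC (n = 6). The single region of Slamf1, the gene of CD150, was at 22.4 ± 17.6 CPM in HSC, 18.8 ± 11.9 in MPP2 (n = 6), 2.95 ± 3.77 in MPP3 (n = 5) and 12.2 ± 12.8 in MPP4 (n = 6). HSC thus had the highest mean, above that of MPP3, which goes against the CD150– written for the HSC gate. Cd48 and Ly6a had no region, so those parts of the gates were not checked.

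Per kb of region, the most accessible members were Bcl2l11 regions over its second start (238 CPM per kb) and 7 bp before its first (227). The start of Bcl2l1 was next at 207. These 3 regions stood at the 89.1, 87.1 and 82.5 percentiles of nuclear regions. The start of Bid followed at 190 CPM per kb (77.0 percentile), and that of Bcl2 was near the middle at 144 (52.3 percentile). The broad Mcl1 region, 1112 bp wide, was at 106 CPM per kb (20.9 percentile). Lowest were the start of Bax at 91.8 CPM per kb (11.0 percentile) and the region inside Bcl2 at 74.5 (3.76 percentile). All of these are means over 23 replicates and rank regions within this set, not expression of the genes.

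Accessibility at Mcl1 was higher in donor cells from IκB– recipients than in those from WT recipients. Its region, chr3:95658545-95659656 (mm10), covers the RefSeq start and 176 of the 250 bases printed for Mcl1. In HSC the WT libraries were at 97.5, 105 and 103 CPM (replicates 1 to 3) and the IκB– libraries at 109, 115 and 207. In MPP2 they were at 120.1, 57.0 and 81.8 CPM in WT recipients against 116, 94.3 and 148 in IκB– recipients. In these subsets the groups did not overlap in HSC and overlapped in MPP2. In MPP3 the WT replicates were at 97.6 and 89.4 CPM and the IκB– replicates at 169, 107 and 206. In MPP4 the WT libraries were at 62.0, 99.7 and 109 CPM and the IκB– libraries at 108, 120.4 and 195. The groups did not overlap in MPP3, and in MPP4 they overlapped by 1 library on each side.

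Over all subsets the Mcl1 region averaged 141 ± 42.3 CPM in IκB– recipients (SD, n = 12) and 92.8 ± 19.2 in WT recipients (n = 11). The log2 difference, averaged over subsets in the fit, was 0.61 ± 0.15 (SE, adjusted p 0.0323 in edgeR's quasi-likelihood test), and 11 of the 12 IκB– replicates lay above the median WT replicate. It was the 1 member region of 12 called in this comparison, in which 1.73% of all tested regions were called. Same-numbered libraries of a recipient type tended to deviate together (27 of 36 pairs correlated over 0.1). The fit takes them as independent, so neither its p-value nor the 11 of 12 allows for this. The log2 difference in the single subsets was 0.56 ± 0.33 (SE) for HSC and 0.46 ± 0.30 for MPP2, then 0.78 ± 0.29 for MPP3 and 0.62 ± 0.32 for MPP4, none of them called on its own in the fit without a replicate block. The 4 IκB– group means, 119 to 161 CPM, stood above the 4 WT group means, 86.3 to 102, although neighbours in the order of all 8 means overlapped in range. These are pooled cells, in which fewer cells with an open site and less accessibility per cell cannot be told apart.

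In each of the 4 IκB– groups the highest Mcl1 value was that of the library numbered 3. Without these 4 libraries together, a setting chosen after seeing the data, the log2 difference was 0.33 and the edgeR adjusted p was 0.323, so the call was lost. The share of counts near gene ends was also highest in the library numbered 3 in IκB– HSC (73.8%), MPP2 (67.3%) and MPP4 (68.9%). In IκB– MPP3 it was second (70.0%, against 71.7% in replicate 1). The WT libraries numbered 3 likewise had the highest share in HSC (70.2%), MPP2 (67.9%), MPP3 (68.0%, before summing) and MPP4 (71.1%). At Mcl1 they were the highest in 1 of 3 WT groups. With that share as a covariate the Mcl1 difference was 0.55 and the edgeR adjusted p 0.0122. The call was also lost with DESeq2 (0.61, adjusted p 0.0544). Single libraries whose removal ended it were WT HSC replicate 2 (edgeR adjusted p 0.0630), WT MPP2 replicate 2 (0.0797), WT MPP3 replicate 1 (0.0537), WT MPP3 replicates 2 and 3 taken as 1 sample (0.101) and WT MPP4 replicate 2 (0.0664), and among IκB– recipients replicate 3 of HSC (0.0861), MPP2 (0.0670), MPP3 (0.0583) and MPP4 (0.111). Over all 23 removals of 1 replicate the difference stayed between 0.50 and 0.71.

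**Figure D1:**
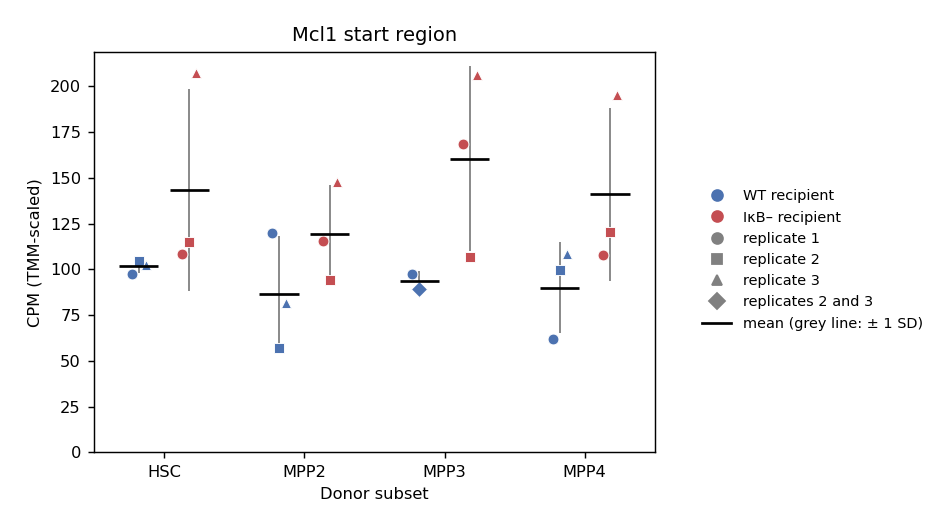
Accessibility of the region over the Mcl1 start in CPM, by donor subset and recipient, with 1 point per replicate (marker shape gives the replicate number), the group mean as a black bar and 1 SD as a grey line. The library numbered 3 is the highest of each IκB– group, at 207, 148, 206 and 195 CPM, and the WT replicates reach at most 120.1 CPM.

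Bcl2, the founding survival gene of the family, had 4 regions that did not move together. The region over its start, chr1:106714076-106714443, averaged 53.1 ± 13.99 CPM (SD, n = 23), ran from 17.7 CPM in IκB– HSC replicate 2 to 72.6 in IκB– MPP2 replicate 2, and covers 153 of the 250 bases printed for Bcl2. A region inside the gene body, chr1:106653619-106653889, lies 60401 bp downstream of the start; the gene table used holds no exons, so intron or exon was not assigned. Beyond the 3′ end of the gene and outside any gene body lie chr1:106517685-106518108, at 20068 bp from that end, and chr1:106515699-106515950, at 22226 bp. They are called here the near and the far downstream region.

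The intragenic Bcl2 region had higher means in HSC and MPP2 than in MPP3. Yet 3 of the 6 IκB– libraries of HSC and MPP2 lay within the MPP3 range. In HSC the region was at 36.6, 58.1 and 28.0 CPM in WT recipients and at 33.9, 26.5 and 4.41 in IκB– recipients. In MPP2 it was at 33.7, 45.0 and 32.7 CPM in WT recipients and at 28.9, 7.26 and 7.93 in IκB– recipients. Among these 12 libraries all 6 from WT recipients were at or above 28.0 CPM, and 3 of the 6 from IκB– recipients were under 8 CPM. In MPP3 it was at 9.38 and 9.09 CPM in WT recipients and at 5.68, 6.96 and 2.68 in IκB– recipients. In MPP2 and MPP3 every IκB– library lay below every WT replicate. In MPP4 the WT libraries were at 20.7, 37.8 and 0 CPM and the IκB– libraries at 10.8, 15.1 and 3.05. Every MPP3 replicate lay below 5 of the 6 HSC libraries, the exception being IκB– HSC replicate 3, and MPP4 ran from 0 to 37.8 CPM. These values rest on few reads, 0 to 21 counts per replicate and 140 in all.

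The joint edgeR test for any difference between the 4 subsets called this region (adjusted p 0.0315) and the far downstream region, 2 of 12 members, where 7.2% of all regions were called. Between MPP3 (6.76 ± 2.74 CPM, n = 5) and HSC (31.3 ± 17.4, n = 6) the intragenic region fell by 1.96 ± 0.57 on the log2 scale (SE, edgeR adjusted p 0.0490). It was the 1 member of 12 called in that comparison, with 2.58% of all regions called. Its differences from HSC were -0.12 ± 0.49 in MPP2 (25.9 ± 15.2 CPM, n = 6) and -1.06 ± 0.56 in MPP4 (14.6 ± 13.7 CPM, n = 6), neither of them called. The MPP3 call lies at the threshold: it was lost with library sizes scaled by total counts (-1.82, adjusted p 0.0678), with limma-voom (-1.75, 0.0986), with the share of counts near gene ends as covariate (-1.65, 0.0911) and in 18 of 23 removals of 1 replicate (up to 0.265, without IκB– HSC replicate 1). It was kept without WT HSC replicate 3, WT MPP4 replicate 2 or 3, IκB– HSC replicate 3 or IκB– MPP3 replicate 2, and without the 4 IκB– libraries numbered 3 (-2.18, 0.0121). The joint call was lost with limma-voom (0.0987) and, with edgeR adjusted p-values up to 0.148, without WT HSC replicate 2, WT MPP2 replicate 1 or 2, WT MPP3 replicate 1 or replicates 2 and 3 as 1 sample, IκB– MPP2 replicate 1, or IκB– MPP3 replicate 1 or 3.

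In every subset the mean of the intragenic Bcl2 region was lower in IκB– than in WT recipients: 21.6 against 40.9 CPM in HSC, 14.7 against 37.1 in MPP2, 5.11 against 9.23 in MPP3 and 9.62 against 19.5 in MPP4. The mean log2 difference was -1.04 ± 0.38 (SE), with an unadjusted p of 0.00874 and an edgeR adjusted p of 0.161, so it was not called. Without the 4 IκB– libraries numbered 3 it was -0.61 (adjusted p 0.452). The Slamf1 region gave differences of the same sign in both comparisons, -1.95 ± 0.44 between recipients (edgeR adjusted p 0.0157) and -2.64 ± 0.71 between MPP3 and HSC (0.0296); its part in the Bcl2 values was not tested.

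The far downstream Bcl2 region rose from HSC to MPP4. In MPP4 it was at 48.2, 51.6 and 47.2 CPM in WT recipients and at 61.9, 67.7 and 51.9 in IκB– recipients. In HSC it was at 18.3, 11.6 and 37.3 CPM in WT recipients and at 27.1, 17.7 and 22.0 in IκB– recipients. All 6 MPP4 libraries lay above all 6 HSC libraries. In MPP2 the values were 44.3, 24 and 32.7 CPM against 24.8, 21.8 and 29.1, and in MPP3 they were 41.3 and 47.0 against 33.2, 20.9 and 26.8, WT recipients first. No library of these subsets reached the lowest MPP4 value. Between recipients, the IκB– libraries lay below both WT replicates in MPP3 and above all WT libraries in MPP4. The mean was 54.8 ± 8.23 CPM in MPP4 and 22.3 ± 8.95 in HSC (SD, n = 6 each).

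On the log2 scale the far downstream region differed between MPP4 and HSC by 1.26 ± 0.33 (SE, edgeR adjusted p 0.0413), as the 1 member of 12 called where 1.22% of all regions were called. Its differences from HSC were 0.41 ± 0.34 in MPP2 and 0.65 ± 0.33 in MPP3, not called. The MPP4 call was lost with limma-voom (1.25, adjusted p 0.118) and DESeq2 (1.28, 0.0842), and without the 4 IκB– libraries numbered 3 (1.31, 0.102). It was also lost without WT HSC replicate 1 (edgeR adjusted p 0.0746) or 2 (0.147), WT MPP4 replicate 1 (0.0664), 2 (0.0883) or 3 (0.0555), IκB– HSC replicate 2 (0.0722) or 3 (0.0595), and IκB– MPP4 replicate 1 (0.0971) or 3 (0.0668), with differences of 1.07 to 1.57 over all 23 removals. Counts were 2 to 35 per replicate.

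In the joint test of the subsets the far downstream region had an edgeR adjusted p of 0.0371. That call was lost with limma-voom (0.119), with DESeq2 (0.0689) and without the 4 IκB– libraries numbered 3 (0.0692). Single removals that ended it, 13 of 23 with adjusted p-values up to 0.101, were those of WT HSC replicate 1 or 2, WT MPP2 replicate 2, WT MPP3 replicate 1 or replicates 2 and 3 as 1 sample, any WT MPP4 replicate, IκB– HSC replicate 2, IκB– MPP2 replicate 1 and any IκB– MPP4 replicate.

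The near downstream Bcl2 region, the most accessible of the gene at 66.7 ± 21.3 CPM (SD, n = 23), was not called in the fit without a replicate block. It was at 67.0, 65.9 and 88.6 CPM in WT HSC, at 65.3, 69.0 and 38.2 in WT MPP2, at 56.3 and 92.4 in WT MPP3 and at 68.9, 89.4 and 85.0 in WT MPP4. In IκB– recipients it was at 88.2, 88.4 and 22.0 CPM in HSC, at 60.6, 58.0 and 68.7 in MPP2, at 32.2, 34.8 and 56.3 in MPP3 and at 107.7, 67.7 and 64.1 in MPP4. In MPP3 the IκB– libraries touched the range of the WT replicates only at its lower edge, and the log2 difference there was -0.93 ± 0.34 (SE, edgeR adjusted p 0.291). The start of Bcl2 differed between recipients by -0.19 ± 0.18 and had a joint adjusted p of 0.897 over the subsets.

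**Figure D2:**
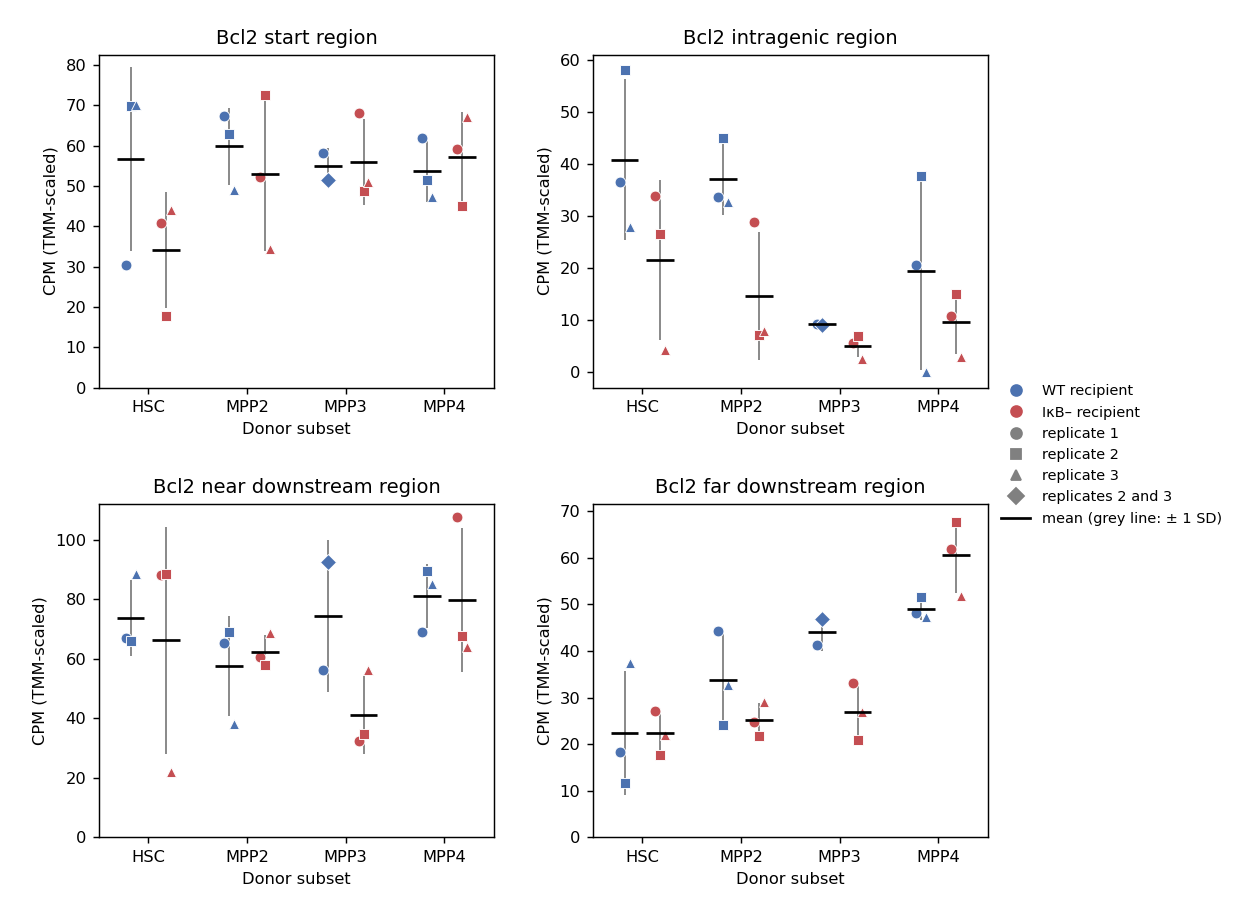
Accessibility of the 4 Bcl2 regions in CPM, by donor subset and recipient, with 1 point per replicate (marker shape gives the replicate number), the group mean as a black bar and 1 SD as a grey line. The intragenic region has its lowest subset mean in MPP3 (2.68 to 9.38 CPM) and the far downstream region is highest in MPP4 (47.2 to 67.7 CPM). The start of the gene runs from 17.7 to 72.6 CPM.

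Bcl2l1, which encodes Bcl-xL, had a region over a RefSeq start, chr2:152831082-152831763, and one inside the gene body 38692 bp from a start, chr2:152788899-152789797. The start region had the highest mean of all members, 141 ± 26.3 CPM (SD, n = 23). In WT recipients it was at 146, 155 and 154 CPM in HSC, at 131, 183 and 120.0 in MPP2, at 116 and 165 in MPP3 and at 75.7, 131 and 175 in MPP4. In IκB– recipients it was at 88.2, 141 and 137 CPM in HSC, at 154, 174 and 140.1 in MPP2, at 135, 141 and 156 in MPP3 and at 140.0, 173 and 119 in MPP4. The 3 IκB– HSC libraries were below the 3 of WT HSC and the groups overlapped in the other subsets. The mean difference between recipients was -0.032 ± 0.13 on the log2 scale (adjusted p 0.942), with the smallest SE of the 12 tested regions.

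The intragenic region of Bcl2l1 was at 131 ± 52.8 CPM in HSC and 128 ± 11.3 in MPP2 (n = 6 each), against 78.4 ± 25.6 in MPP3 (n = 5) and 81.8 ± 25.2 in MPP4 (n = 6). The log2 differences from HSC were 0.038 ± 0.24, -0.63 ± 0.25 and -0.56 ± 0.26 in that order, and the joint test gave an edgeR adjusted p of 0.10, so this region was not called. The IκB– HSC libraries were at 183, 141 and 44.1 CPM, the last being replicate 3. Without that replicate the joint edgeR adjusted p was 0.00456, and the region was then called in MPP3 against HSC as well (-0.87, adjusted p 0.0111). It was the 1 removal of 23 that gave either call: the joint adjusted p reached 0.234 without WT MPP3 replicate 1, and the MPP3 difference was -0.37 (adjusted p 0.624) without IκB– HSC replicate 1. Of 10 other settings, 2 called the region in the joint test (edgeR adjusted p down to 0.00815). In MPP3 against HSC 1 of the 10 did (0.00721).

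Among the BH3-only genes, Bcl2l11 had a region that ends 7 bp before its first RefSeq start, chr2:128125701-128126031, inside the body of the neighbouring gene Acoxl, and one over its second start, chr2:128127347-128127698, of which 228 bases are printed above. The second was the higher, at 83.9 ± 20.8 CPM (SD, n = 23) against 75.1 ± 23.6. In WT recipients it was at 109.7, 58.1 and 121 CPM in HSC, at 73.8, 108 and 98.2 in MPP2, at 76.9 and 80.3 in MPP3 and at 41.3, 75.7 and 94.4 in MPP4. In IκB– recipients it was at 40.7, 79.6 and 115 CPM in HSC, at 71.6, 87.1 and 60.8 in MPP2, at 94.7, 92.8 and 91.2 in MPP3 and at 83.5, 90.3 and 85.4 in MPP4. The IκB– MPP3 libraries were all above the WT MPP3 replicates and the other groups overlapped. The recipient differences were -0.20 ± 0.18 for the first start and -0.026 ± 0.16 for the second on the log2 scale (SE), and neither region was called in any comparison. Removal of 1 replicate moved the value of the first start between -0.36 (without IκB– HSC replicate 3) and -0.063 (without WT MPP3 replicates 2 and 3 as 1 sample).

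Bid, which death receptor signalling activates by cleavage, had regions over its start, chr6:120916729-120916929, within the body 1507 bp from the start, chr6:120915021-120915317, and deeper in the body at 14567 bp, chr6:120901990-120902257. At the start, 105 of the printed bases are covered, and the level was 38.1 ± 9.51 CPM (SD, n = 23). WT recipients gave 24.4, 58.1 and 37.3 CPM in HSC, 29.5, 33.0 and 32.7 in MPP2, 37.5 and 40.9 in MPP3 and 34.4, 41.3 and 37.8 in MPP4. IκB– recipients gave 13.6, 44.2 and 30.8 CPM in HSC, 44.0, 50.8 and 37.0 in MPP2, 46.4, 41.7 and 29.5 in MPP3 and 51.2, 37.6 and 42.7 in MPP4. In MPP2 the IκB– libraries were all higher than the WT libraries and elsewhere the groups overlapped.

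The deeper Bid region gave the largest recipient difference of a member in 1 subset. In MPP4 it was at 20.7, 17.2 and 14.2 CPM in WT recipients and at 70.0, 37.6 and 48.8 in IκB– recipients, groups that did not overlap. The log2 difference was 1.67 ± 0.56 (SE) with an edgeR adjusted p of 0.458, so it was not called; the WT values rest on 3 to 5 counts per library. In the other subsets its difference was between -0.22 and 0.66, and the test for unequal recipient effects gave an unadjusted p of 0.0576 and an adjusted p of 0.999. Averaged over subsets, the 3 Bid regions differed by 0.046 ± 0.20 at the start, 0.41 ± 0.27 near it and 0.48 ± 0.27 deeper in the body, none of them called. The value near the start was 0.12 without IκB– HSC replicate 3.

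Of the pore-forming genes, Bax had 1 region, chr7:45466730-45466932, over its start, and it did not pass the filter. It held 138 counts in all and 1 to 23 per replicate. In WT recipients it was at 18.3, 11.6 and 9.33 CPM in HSC, at 12.6, 15.0 and 16.4 in MPP2, at 7.50 and 18.2 in MPP3 and at 48.2, 17.2 and 33.1 in MPP4. In IκB– recipients it was at 20.4, 8.84 and 26.4 CPM in HSC, at 6.88, 7.26 and 29.1 in MPP2, at 21.8, 18.6 and 29.5 in MPP3 and at 13.5, 30.1 and 9.15 in MPP4. The means were 18.4 ± 9.11 CPM (n = 12) in IκB– recipients and 18.9 ± 11.8 (n = 11) in WT recipients. In MPP3 all IκB– libraries were above both WT replicates, by 18.6 against 18.2 CPM at the nearest, and in the other subsets the groups overlapped. Fitted without the filter, the mean log2 difference between recipients was 0.11 ± 0.33 (SE, edgeR adjusted p 0.917).

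Over the 12 tested regions the median log2 difference between recipients was -0.10, beside -0.0021 over all regions tested, with 4 of 12 above 0. In the edgeR fit without a replicate block no member was called between recipients in a single subset: HSC and MPP2 gave 0% of all regions called, MPP3 0.21% and MPP4 0.045%. Unadjusted p-values under 0.05 numbered 0 for HSC and for MPP2, 2 for MPP3 and 1 for MPP4, of 12 each, where 6.23%, 3.65%, 9.49% and 7.07% of all regions had one, and limma-voom and DESeq2 called no member in any of these subsets either. The joint test for unequal recipient effects called 0% of all regions and no member, with edgeR, limma-voom and DESeq2 alike, and no member had an unadjusted edgeR p under 0.05. For MPP2 against HSC, where 0.03% of all regions were called, edgeR called no member, none had an unadjusted p under 0.05, and limma-voom and DESeq2 called none.

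**Figure D3:**
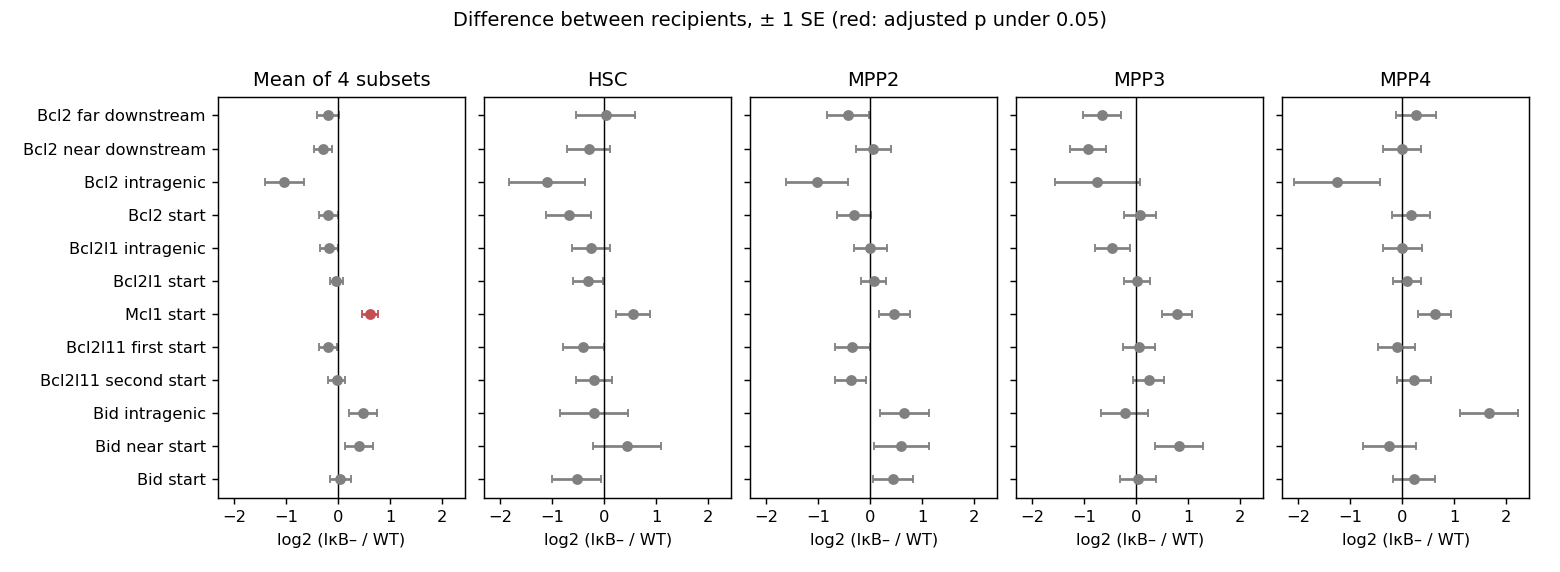
Log2 differences in accessibility between IκB– and WT recipients for the 12 tested regions, as the mean over subsets and in each subset, with bars of 1 SE and called regions in red. The Mcl1 start is the called region (0.61), and the intragenic Bcl2 region has the lowest mean (-1.04).

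**Figure D4:**
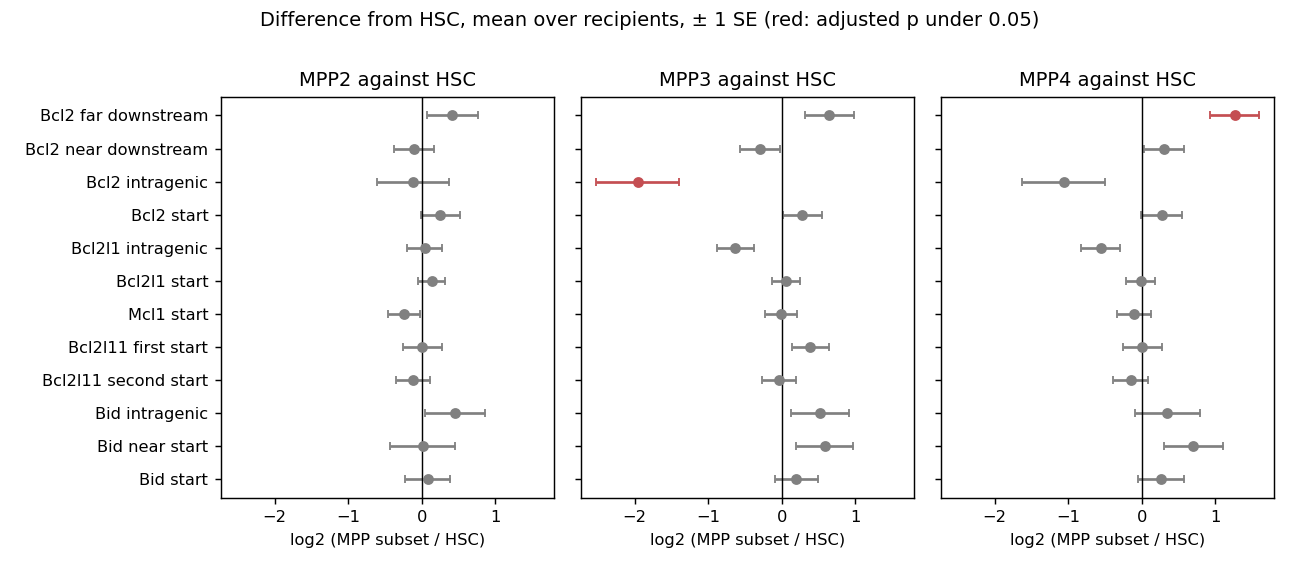
Log2 differences in accessibility between each MPP subset and HSC, averaged over recipients, for the 12 tested regions, with bars of 1 SE and called regions in red. The intragenic Bcl2 region in MPP3 (-1.96) and the far downstream Bcl2 region in MPP4 (1.26) are the called ones.

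When the counts of all regions of a gene were summed, none of the 5 tested member genes was called by edgeR, where 0.542% of 10328 genes were called between recipients and 2.58% between subsets. Between recipients Mcl1 gave 0.60 ± 0.15 (SE, edgeR adjusted p 0.0559) and Bcl2 -0.32 ± 0.12 (0.228), the 2 of 5 genes with an unadjusted p under 0.05, beside 12.1% of all genes; between subsets 0 of 5 had one, beside 14.2%. Limma-voom and DESeq2 called none. The sum for Bcl2 pools regions with opposite differences between subsets, and its joint adjusted p was 0.404.

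Other genes of the pathway gave no called region with edgeR. Of 17 further Bcl2 family genes 8 had a region, 14 regions in all. Between recipients 3 of these had an unadjusted p under 0.05, as did 14.3% of all regions, and the lowest belonged to Pmaip1, the gene of the BH3-only protein Noxa (0.63 ± 0.26, edgeR adjusted p 0.225). Between subsets 4 had one, against 18.8% of all regions, with Pmaip1 lowest again at another region (adjusted p 0.0547), and DESeq2 called 1 of the 14, where it called 6.09% of all regions. Of 20 genes of the apoptosome, caspases and their inhibitors 19 had a region, of which 22 were tested. The lowest adjusted p between recipients there was that of Birc3, which encodes the inhibitor cIAP2 and is known as a target of NF-κB (0.53 ± 0.16, adjusted p 0.0745). Of 12 genes of death receptor and p53 signalling 8 had a region and 10 regions were tested, with Foxo3 lowest (0.40 ± 0.21, adjusted p 0.378). In these last lists 2 of 22 and 0 of 10 regions had an unadjusted p under 0.05 between recipients, and 3 of 22 and 0 of 10 between subsets, none of these shares above that of all regions; limma-voom and DESeq2 called none.

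Of 11 marker genes of mature blood cells, 4 (Itgam, Csf1r, Klf1 and Klrb1c) had 1 region each and 7, among them Cd3e, Cd79a and Ly6g, had none. Their summed level was 120.2 to 195 CPM in the WT replicates and 116 to 177 in the IκB– replicates. None was called between recipients by edgeR, limma-voom or DESeq2, 2 of the 4 had an unadjusted edgeR p under 0.05 beside 14.3% of all regions, 2 of the 4 differences were above 0 with a median of -0.071, and Itgam had the lowest p (1.08 ± 0.36, adjusted p 0.115). Mature cells were depleted and gated out before sorting, and the part of these markers in the Mcl1 difference was not tested.

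The regions most like 2 of the members were sought by Pearson's r of log2(CPM + 1) over the 23 replicates, a description in which the replicates differ in depth. For the intragenic Bcl2 region they were a region at an end of Gpr165, chrX:96713216-96713638 (r = 0.86), and one inside Fhit, chr14:11160752-11161057 (r = 0.86), against a median r of -0.029 over all tested regions. For the Bcl2l1 start they were regions at ends of Npepps, chr11:97280515-97280715 (r = 0.79), and Ncoa3, chr2:165992410-165992776 (r = 0.78), against a median of -0.0088. These r were picked as the highest among the tested regions outside the members, and the intragenic Bcl2 region held 0 to 21 counts per replicate.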

How the data were processed

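The deposited table holds raw counts per region for 24 libraries, whole numbers that the authors did not normalize. The submitters' processing notes name Bowtie2, SAMtools, Picard, MACS2 2.1.0, deepTools and mm10, without their roles; the counter, the duplicate filter, any transposase offset and whether regions were called on pooled libraries are not given in the sources used here. Regions were assigned with the RefSeq GRCm38.p6 gene table, and RefSeq promoter windows held all 8 member genes. Counts of WT MPP3 replicates 2 and 3 were summed (chi-square p 0.348). edgeR 4.0.16 in R 4.3.3 used TMM, filterByExpr and a robust quasi-likelihood fit of 8 group means with 15 residual degrees of freedom; P values were Benjamini-Hochberg adjusted over all regions. The fit was run on simulated counts of independent libraries, which hold no shared deviation of same-numbered libraries and so could not test for it. CPM values with SD are on TMM-scaled library sizes. Values are given in every replicate for the highest region of each gene and for called regions. Members and lists were chosen with earlier results of these data known. limma-voom 3.58.1 and DESeq2 1.42.0, other scalings and filters, a gene-end covariate, a replicate block and removal of each replicate were tried. The library labels give no batch or date. Counting intervals would not cover copies made by PCR. Some marker genes of mature cells are not reported here.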

Additional observations from a re-analysis of the deposited data

How the results depend on the processing

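The number of member regions was 13 by the rule, 10 with overlap of a gene body alone and 11 with a limit of 10 kb. Counts of called members moved as follows. In the mean recipient effect (1) DESeq2 gave 0 and removal of 1 replicate 0 to 1; without the 4 IκB– libraries numbered 3 it was 0. In the joint subset test (2) limma-voom gave 0, DESeq2 1, removal of 1 replicate 0 to 3. For MPP3 against HSC (1) total counts, limma-voom and the gene-end covariate gave 0, removal of 1 replicate 0 to 2 and removal of the 4 libraries 2, with the intragenic Bcl2l1 region added. For MPP4 against HSC (1) limma-voom, DESeq2 and removal of the 4 libraries gave 0, removal of 1 replicate 0 to 1. For gene sums between recipients (0) Mcl1 was called (1) with 24 libraries apart, with the gene-end covariate, with the replicate block and in some removals of 1 replicate (0 to 1). Counts for the other comparisons stayed at 0 except in the fit with the replicate block, described next.

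Same-numbered libraries of different groups tended to deviate together: 27 of 36 such pairs within a recipient type and 25 of 48 across types correlated over 0.1, against 1 of 72 and 1 of 96 pairs with different numbers, and 24 of 24 libraries correlated best with their own number on average. As not every pair did and the labels do not say what a number marks, the fit reported has no block. The fit with the replicate block, where the block is the number across both recipient types, also kept all 24 libraries apart. In it the calls at Mcl1 (adjusted p 0.00715), intragenic Bcl2 (0.00587 in MPP3) and far downstream Bcl2 (0.0177 in MPP4) stood, the joint test called 3 of 12 members (14.9% of all regions), and the MPP3 recipient effect called 2 of 12 (near downstream Bcl2 and Mcl1, with 2.94% of all regions called). With 24 libraries apart and no block neither of those MPP3 calls was made. Over the whole table, calls between recipients numbered 231 as reported, 281 with 24 libraries apart and 482 with the block added; between subsets they numbered 960, 1062 and 1941.

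No called member difference changed sign. Small differences did on removal of 1 replicate: the Bcl2l1 start ran from -0.088 to 0.039 (0.036 without WT MPP4 replicate 3), the second Bcl2l11 start from -0.15 to 0.049 and the Bid start from -0.023 to 0.15. With total counts the median MPP3 difference of all regions was 0.12 instead of -0.02 and 47.9% instead of 24.4% of the called regions were higher in MPP3 than in HSC. Called regions between recipients ranged from 52 to 442 over removals of 1 replicate. Counts as low as 0 at intragenic Bcl2 and 1 at Bax limit what these libraries can show.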

Other observations

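At 3 of the 13 member regions the library numbered 3 lay at the same end of its group in most groups of both recipient types. The library numbered 3 was the lowest of its group at the intragenic Bcl2 region in 3 of 3 WT groups with 3 replicates and in 3 of 4 IκB– groups. At the intragenic Bcl2l1 region it was the lowest in 2 of 3 WT and 3 of 4 IκB– groups. At the first start of Bcl2l11 it was the highest in 3 of 3 WT and 3 of 4 IκB– groups. At the Mcl1 start it was the highest in 4 of 4 IκB– groups and in 1 of 3 WT groups. Mixed cases were among the others: at the far downstream Bcl2 region it was the highest in 1 and the lowest in 1 group of each recipient type, and at the near downstream Bcl2 region the highest in 2 and the lowest in 2 IκB– groups. These counts were chosen after the values were seen, and what the number stands for is not given in the labels. They were not made for the other regions of the table, so 3 of 13 has no share of all regions to be set against.

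The edgeR biological coefficient of variation was 0.344 at the intragenic Bcl2 region, the highest of the 12 tested members, and 0.124 at the Bid start, the lowest, beside a median of 0.198 over all tested regions. The Mcl1 start was near that median at 0.204.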
